A study of Mus musculus with 3 samples.

Results

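The long intergenic non-coding RNA (lincRNA) genes examined here are all genes to which the GENCODE M1 annotation of the mm9 mouse genome gives the type lincRNA on chromosomes 1 to 19 and X. They number 1273 of 37252 genes on these chromosomes, and the abundant nuclear RNAs Neat1 and Malat1 are not among them, since the annotation gives both another type. Pol_II phosphorylated at Ser5 was located by ChIP-Seq, the sequencing of DNA pulled down with an antibody from cross-linked chromatin. All 3 libraries came from macrophages grown from bone marrow of female Fvb mice and used on the 7th day of differentiation. In 1 library the antibody (ab5131, against the CTD repeat phosphorylated at serine 5) was applied to untreated macrophages. In the other Ser5 library the cells had been stimulated for 2 h with LPS at 10 ng/ml, the bacterial lipopolysaccharide that activates macrophages. The labels name LPS alone, whereas legends of the study name γIFN (interferon gamma) along with it for its stimulated cells. The third library was input DNA from untreated macrophages, sequenced with no immunoprecipitation. The age of the mice, and whether animals were pooled or shared between libraries, are not given in the sources used here.

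Most lincRNAs are made by Pol_II like messenger RNAs, with a cap, splicing and a poly-A tail, but carry no recognised open reading frame. Some act on the chromosome that carries their own gene, as Xist does on the inactive X chromosome. Others are known as hosts of small nucleolar RNAs or microRNAs. Phosphorylation of serine 5 in the tail of the large Pol_II subunit accompanies initiation, so the antibody marks polymerase most strongly at start sites and, to a lesser degree, along transcribed genes.

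Few of these genes stand alone. A coding transcript started within 2 kb of the lincRNA start site (TSS) at 655 members, called shared here, and 653 of these coding starts lay on the opposite strand, at a median distance of 232 bp. A further 239 members had a TSS window of 1 kb on each side that overlapped a coding gene (inside). Of the remaining members, 136 had a coding gene within 10 kb of the TSS (near) and 243 had none (distal). ChIP-Seq tags do not show which strand was transcribed, so at shared and inside members the signal cannot be assigned to the lincRNA rather than to the coding gene. Members spanned 495 to 578182 bp, with a median of 8448 bp, and 906 had a single annotated transcript. The windows of 24 members overlapped that of another member, so these are not independent regions.

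The promoters of 8 near or distal members are printed below, because these carried the largest (Mir155, Gm17446, Gm16988) and 3 of the 4 smallest (9330111N05Rik, Gm16983, 4930520O04Rik) ratios of LPS to untreated Ser5 tags, or the highest levels in untreated macrophages (A230028O05Rik, 2410006H16Rik). The promoter of 3010027C24Rik, with the second smallest ratio, is not shown here. Each runs 5′ to 3′ along the gene from 250 bases before to 50 bases after the TSS, read from the NCBIM37 (mm9) genome. Capitals mark matches, on either strand, to TATAAA (the box bound by TBP), to CCAAT (the box bound by NF-Y), GGGACTTTC or GGAATTTCC (NF-kB), TGAGTCA (AP-1) or GAAANNGAA (the core of interferon response elements).
Mir155, chr16:84713018-84713317, plus strand: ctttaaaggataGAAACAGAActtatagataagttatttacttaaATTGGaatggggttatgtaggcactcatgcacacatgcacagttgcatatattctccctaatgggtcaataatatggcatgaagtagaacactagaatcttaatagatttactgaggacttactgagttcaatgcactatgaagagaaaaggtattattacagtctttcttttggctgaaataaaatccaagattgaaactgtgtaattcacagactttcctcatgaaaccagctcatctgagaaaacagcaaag
Gm17446, chr14:103377187-103377486, plus strand: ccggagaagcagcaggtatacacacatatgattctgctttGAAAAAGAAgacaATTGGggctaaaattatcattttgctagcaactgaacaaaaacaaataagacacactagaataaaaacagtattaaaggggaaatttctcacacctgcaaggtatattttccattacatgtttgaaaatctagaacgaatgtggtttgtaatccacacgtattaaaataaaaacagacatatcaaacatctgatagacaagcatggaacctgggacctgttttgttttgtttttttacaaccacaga
Gm16988, chr10:37057042-37057341, plus strand: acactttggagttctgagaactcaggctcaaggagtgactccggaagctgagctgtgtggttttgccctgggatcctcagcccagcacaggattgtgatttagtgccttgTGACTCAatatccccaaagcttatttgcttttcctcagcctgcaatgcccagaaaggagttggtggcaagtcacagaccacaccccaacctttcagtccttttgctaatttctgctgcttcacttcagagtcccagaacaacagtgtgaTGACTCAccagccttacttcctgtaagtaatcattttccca
9330111N05Rik, chr13:81101899-81102198, plus strand: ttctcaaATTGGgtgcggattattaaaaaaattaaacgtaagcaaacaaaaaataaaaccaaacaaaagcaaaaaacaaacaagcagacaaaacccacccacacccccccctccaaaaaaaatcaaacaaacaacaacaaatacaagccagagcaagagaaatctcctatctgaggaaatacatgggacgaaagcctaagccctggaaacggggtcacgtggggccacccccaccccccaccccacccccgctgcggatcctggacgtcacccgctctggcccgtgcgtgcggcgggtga
Gm16983, chr8:129090620-129090919, plus strand: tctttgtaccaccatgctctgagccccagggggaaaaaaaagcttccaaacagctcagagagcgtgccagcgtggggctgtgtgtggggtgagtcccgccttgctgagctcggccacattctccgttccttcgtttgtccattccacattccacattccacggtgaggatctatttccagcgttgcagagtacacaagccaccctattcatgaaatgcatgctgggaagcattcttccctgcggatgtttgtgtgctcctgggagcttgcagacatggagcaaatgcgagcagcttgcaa
4930520O04Rik, chr9:114277171-114277470, plus strand: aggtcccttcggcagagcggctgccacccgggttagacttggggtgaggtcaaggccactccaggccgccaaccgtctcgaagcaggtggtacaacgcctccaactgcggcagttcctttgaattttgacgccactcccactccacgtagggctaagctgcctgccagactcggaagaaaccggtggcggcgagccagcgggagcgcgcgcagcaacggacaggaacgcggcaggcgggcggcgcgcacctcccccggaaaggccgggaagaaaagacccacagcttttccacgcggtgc
A230028O05Rik, chr16:25059475-25059774, plus strand: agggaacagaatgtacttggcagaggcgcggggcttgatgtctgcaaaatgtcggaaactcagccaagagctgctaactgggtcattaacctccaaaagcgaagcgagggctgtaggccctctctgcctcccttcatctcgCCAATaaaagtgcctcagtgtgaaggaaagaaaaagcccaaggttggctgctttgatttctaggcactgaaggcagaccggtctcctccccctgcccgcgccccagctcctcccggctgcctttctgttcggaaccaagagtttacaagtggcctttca
2410006H16Rik, chr11:62416129-62416428, plus strand: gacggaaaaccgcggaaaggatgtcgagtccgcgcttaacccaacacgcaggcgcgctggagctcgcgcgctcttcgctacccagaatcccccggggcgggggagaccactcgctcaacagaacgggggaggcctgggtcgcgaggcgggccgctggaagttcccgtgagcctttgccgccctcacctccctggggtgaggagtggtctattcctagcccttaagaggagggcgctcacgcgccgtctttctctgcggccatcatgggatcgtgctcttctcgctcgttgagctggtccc

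Both Mir155 and Gm17446 held an interferon-type match, at position -238 and -210 from the TSS, and a CCAAT match at -205 and -197. Gm16988 held AP-1 matches at -140 and 9, and both 9330111N05Rik (at -243) and A230028O05Rik (at -109) a CCAAT match, while the other 3 held none of the letters searched. CpG dinucleotides numbered 0, 3 and 1 in the promoters with the largest ratios, 13, 10 and 29 in the 3 shown for small ratios, and 11 and 31 in those with the highest level. None of these matches shows binding. At Mir155, Gm17446 and Gm16983 the highest Ser5 bins lay away from the annotated TSS, as described with the single loci. The windows printed for these members therefore need not hold the promoter in use. Over all members, 9.03% of such promoters held the TBP letters, 35.3% those of NF-Y, 0.628% an NF-kB, 3.85% an AP-1 and 8.88% the interferon-type letters. Over 22350 protein-coding genes the shares were 13.4%, 37.9%, 0.689%, 4.42% and 8.93%.

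The libraries held 7616771 (untreated Ser5), 6249819 (LPS Ser5) and 7533308 (input) tags on these chromosomes, and levels are given as TPM, which here scales the tags of a window to 1e+06 such tags of the library. With 1 library per condition there was no replicate and no test, and all intervals are 95% intervals that cover counting error only. A member is called above input with at least 10 Ser5 tags and at least 2 times the input TPM, and higher or lower after LPS where its Ser5 tags sum to at least 10 and the ratio is at least 2 or at most 0.5. Of 8 macrophage marker genes 7 were found by symbol, and their TSS windows held 4.72 to 104 times the input TPM in untreated cells, while 12 of 15 markers of other blood and tissue cells lay below input in both Ser5 libraries. The exceptions were Cd79a (2.10 times in untreated cells), Ngp (5.93 times, on 6 tags against 1 in input) and Camp (2.91 times after LPS). The genes Il1b, Ccl5 and Ptgs2, known LPS targets, were 39.6, 186 and 28.0 times higher in the library labelled LPS. Tags in the files span 45 bases in the untreated, 30 in the LPS and 36 in the input library, whereas the study's methods give the opposite order for the Ser5 libraries, and shorter tags map uniquely to fewer places.

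Ser5 was found at nearly 1 in 2 lincRNA start sites, mostly where a coding gene started close by. In untreated macrophages 619 of 1273 members (48.6%, Wilson interval 45.9% to 51.4%) were above input, against 33.6% of the 35979 other genes and 47.6% of the coding genes among them. After LPS the number was 578 (45.4%, 42.7% to 48.1%), against 31.8% of the other genes. By position the share in untreated cells was 63.8% of shared, 42.6% of near, 31.8% of inside and 27.6% of distal members, and after LPS 61.5%, 33.8%, 30.1% and 23.5%. Thus 418 of the 619 occupied members were shared, and 125 were near or distal. Summed over the merged windows, the members held 7.74 times (7.61 to 7.87) the input TPM in untreated and 7.26 times (7.14 to 7.39) after LPS. All ratios to input depend on the scaling. With tags outside all deposited peaks in place of all tags, they rise by 1.91 times for the untreated and 2.06 times for the LPS library, so that the sum in untreated cells stood at 14.8 times input, and 704 (untreated) and 654 (LPS) members were above input. At the low end, 60 members had 0 tags in both Ser5 libraries, where 3 tags would equal 0.394 TPM in the untreated and 0.480 TPM in the LPS library, so Ser5 below these levels was not detectable. In the windows of 49 members under 50% of the 30-base sequences were unique in the genome, which leaves fewer positions for tags. How many of the 60 are among these was not counted.

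The peaks called by the authors gave similar shares, except that distal members then stood above inside ones. A deposited peak lay in the TSS window of 610 members (47.9%) in untreated macrophages and of 576 (45.2%) after LPS, against 33.1% and 31.5% of the other genes. Both libraries had a peak at 547 members, 63 had one in untreated cells only, 29 after LPS only, and 634 had none (43.0%, 4.95%, 2.28% and 49.8%). For the other genes these shares were 30.4%, 2.71%, 1.12% and 65.8%. The shares with a peak in both ranged from 63.2% of shared members to 34.6% of near, 23.0% of distal and 12.6% of inside members. At distal members a peak in untreated cells only (17 members, 7.00%) was found more often than one after LPS only (3 members, 1.23%), and at near members 6 and 3 were found.

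**Figure D1:**
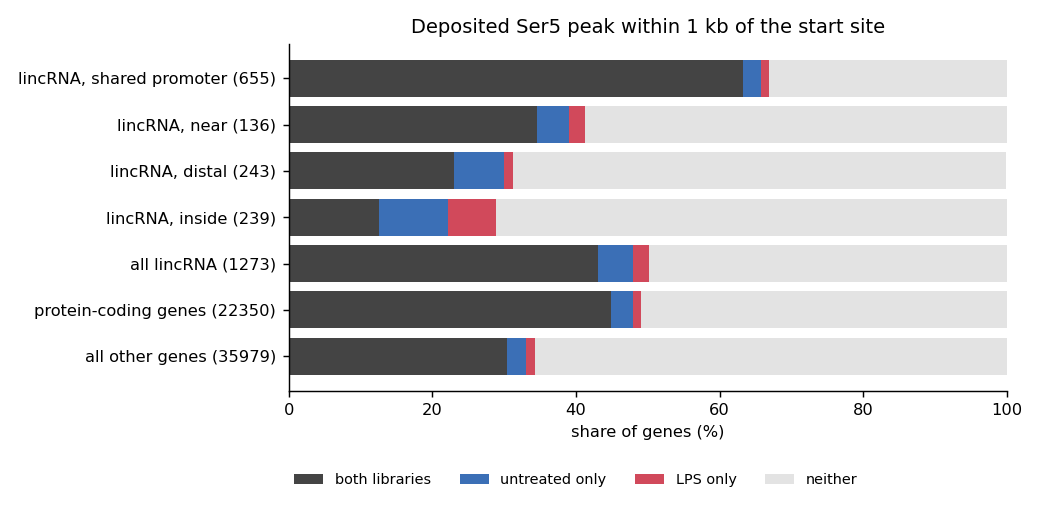
Bars give the share of genes (%) whose TSS window of 1 kb on each side holds a deposited Ser5 peak in both libraries, untreated only, LPS only or neither, for each position of the lincRNA genes and for other genes. Shared members reach 63.2% with a peak in both, and inside members 12.6%.

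Around the start sites of shared, near and distal members Ser5 formed a narrow summit. In untreated cells it stood in the first 100 bp downstream of the TSS, at a mean of 21.6 TPM per kb per gene for shared, 18.5 for near and 10.2 for distal members. After LPS the summit stood in the same bin for near (14.9) and distal (8.46) members, and 100 to 200 bp upstream for shared ones (17.9). Beyond it, from 1 to 5 kb downstream, the mean was 1.60 TPM per kb for near and 0.745 for distal members in untreated cells, against 0.595 and 0.510 in input. From 5 to 1 kb upstream it was 1.37 for near and 0.342 for distal members, against 0.585 and 0.489 in input. The near members thus had a similar level on both sides. Inside members had hardly any summit, as their highest bins in untreated cells held 2.43 TPM per kb, and 1.58 TPM per kb lay from 1 to 5 kb downstream. The rise of the distal profile about 4300 bp downstream comes largely from the 3′ end of Gm17446, described with the single loci. These tags of a single gene also enter the distal mean from 1 to 5 kb downstream.

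**Figure D2:**
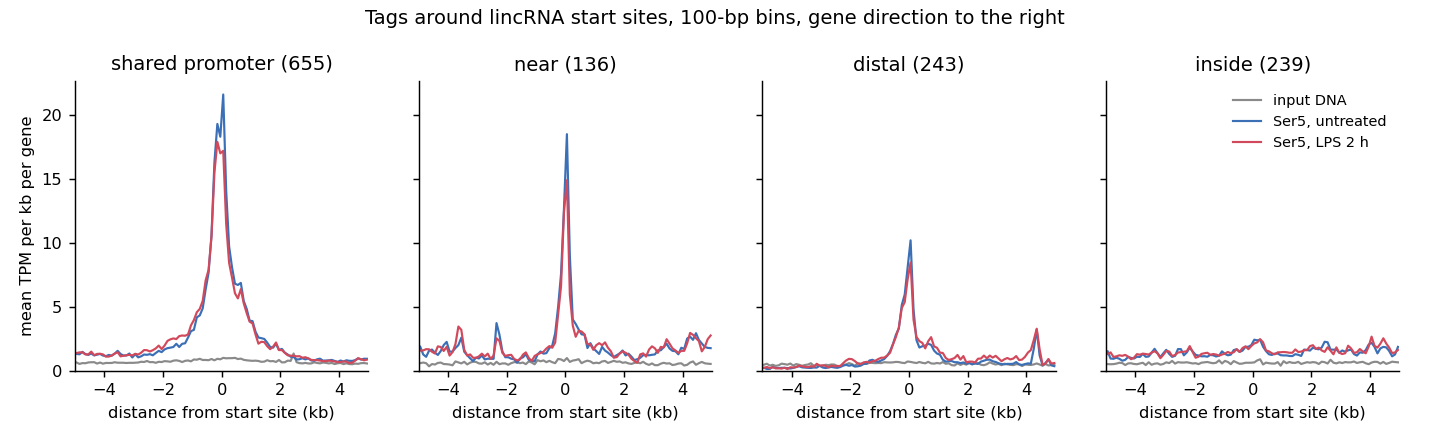
Lines give mean TPM per kb per gene in 100-bp bins against the distance from the lincRNA TSS (kb, gene direction to the right), for untreated Ser5, LPS Ser5 and input. The summit in the untreated library is 21.6 TPM per kb for shared, 18.5 for near and 10.2 for distal members.

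Members with Ser5 differed from those without in base composition, which the rule for members did not use. The 547 promoters with a peak in both libraries held a median of 22 CpG dinucleotides, with a median observed-to-expected ratio of 0.774, and 70.7% had a ratio of at least 0.6. The 634 promoters with no peak held a median of 6, a ratio of 0.352, and 27.0% reached 0.6, and over all coding genes 45.2% did. Among near and distal members alone 59 of the 103 with a peak in both reached 0.6, and 42 of the 247 with none. Repeated sequence also differed, as a mean of 95.9% of the 30-base sequences in the windows of those 103 members were unique in the genome, and 84.2% in the 247; its part in the difference was not tested.

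The highest levels at near and distal members in untreated cells lay within the range of the 7 macrophage marker genes (13.8 to 234 TPM, and 5.76 to 180 TPM after LPS), over windows of equal length. A230028O05Rik (chr16:25059725-25069144, plus strand, 3 exons), whose TSS lies 67063 bp from the coding gene Lpp, had 992 tags in untreated, 743 after LPS and 36 in input, that is 130 (122 to 139), 119 (110 to 128) and 4.78 TPM. 2410006H16Rik had 791, 452 and 37 tags, and 104, 72.3 and 4.91 TPM. Gm11613, 3047 bp from Mllt6, had 727, 1188 and 16 tags, and its 190 TPM (179 to 201) after LPS was the highest level of any near or distal member and stood above that range. Its ratio of 1.99 (1.81 to 2.19) lay just under the limit for a higher member, and passed it with 2 kb on each side (log2 ratio 1.13). Snhg5 and Dleu2, known respectively as a host of small nucleolar RNAs and of miR-15a and miR-16-1, followed in untreated cells with 77.1 and 73.1 TPM, and had 74.1 and 69.3 after LPS. Their intervals overlapped (71.0 to 83.6 and 67.2 to 79.5 in untreated cells). 5430416N02Rik had 69.7 TPM in untreated and 52.0 after LPS, a ratio of 0.746 (0.648 to 0.858), and Gm17422 had 60.3 and 27.7, a ratio of 0.459 (0.383 to 0.548). After LPS the order changed, as Gm14636 (106 TPM), 2310001H17Rik (95.7) and Gm17446 (78.4) then stood above Snhg5. The intervals of Gm17446 (71.6 to 85.7) and Snhg5 (67.5 to 81.1) after LPS overlapped, however.

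Between the Ser5 libraries more lincRNA start sites were lower after LPS than higher, in shares close to those of other genes. Of 809 members with at least 10 tags, 62 (7.66%, 6.02% to 9.70%) were at least 2 times higher after LPS, against 6.79% of the other genes. At least 2 times lower were 138 (17.1%, 14.6% to 19.8%), against 15.3%. The median log2 ratio was -0.28, and -0.26 over the other genes. Taking only tags outside all deposited peaks for the scaling moves every log2 ratio of LPS to untreated up by 0.11. By this scaling 70 members were higher (8.65%) and 117 lower (14.5%), with no share of the other genes at hand. Near and distal members together gave 17 higher (10.1%, 6.41% to 15.6%) and 45 lower (26.8%, 20.7% to 33.9%) of 168, with a median of -0.46. Shared members gave 25 (5.09%) and 63 (12.8%) of 491, and inside members 20 (13.3%) and 30 (20.0%) of 150. The counting interval of the ratio excluded 1 for 52 of the 62 higher and 116 of the 138 lower members. In such bulk material, Pol_II at a locus in fewer cells and less Pol_II per cell cannot be told apart.

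Of the 62 higher members 21 had a peak in the LPS library alone, 25 in both and 16 in neither. Of the 138 lower members 40 had a peak in the untreated library alone and 63 in both. Peaks and ratios rest on the same tags, so these counts are not independent of each other. Just inside the limits stood Gm15283 at 2.39, the near member at Hif1a, and Gm13817 at 0.481, and just outside Gm11613 at 1.99 and 2810410L24Rik at 0.506, among near and distal members with at least 50 tags. The window of 135 members differed by over 5 percentage points in uniqueness between 30 and 45 bases. Among the 467 members that differed by at most 1 percentage point and had at least 10 tags, 41 were higher (8.78%) and 76 lower (16.3%). The other genes were not restricted in this way.

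**Figure D3:**
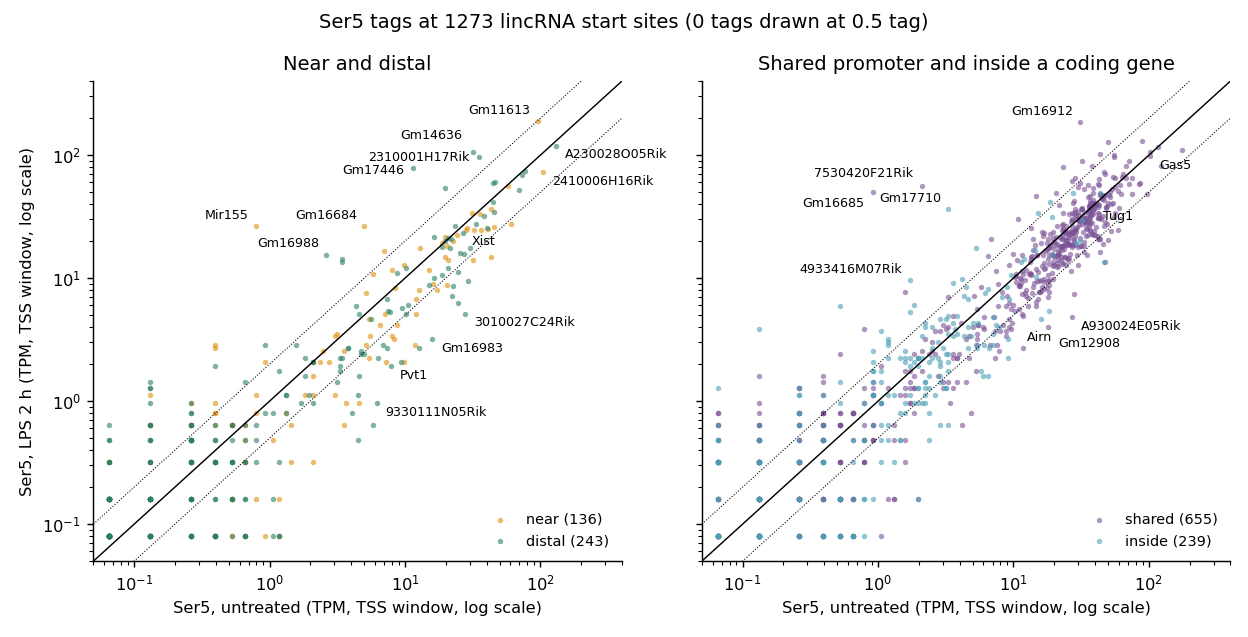
Each point is a lincRNA gene, with its untreated Ser5 level (x axis) against its level after LPS (y axis), both in TPM over the TSS window on log scales, and 0 tags drawn at 0.5 tag. The solid line marks equal levels and the dotted lines the limits of 2 times, and Mir155, Gm17446 and Gm16685 stand far above the upper limit.

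Near and distal members with the largest ratios included a microRNA gene and neighbours of known LPS targets. Mir155 (chr16:84713268-84715487, plus strand, 2 exons), which holds miR-155, a microRNA induced in activated macrophages, had 6 tags in untreated, 166 after LPS and 14 in input. Its level was 0.788 TPM (0.289 to 1.71) and 26.6 TPM (22.7 to 30.9), a ratio of 33.7 (15.2 to 93.2). In untreated cells it did not exceed input, at 0.424 times (0.134 to 1.17), and after LPS it was 14.3 times input (8.28 to 26.7). Counted over 500 bp on each side, its log2 ratio of LPS to untreated was 6.61, against 5.08 over 1 kb. Gm17446 (chr14:103377437-103381745, plus strand, 2 exons), 68757 bp from Irg1, the gene of the itaconate-producing enzyme of activated macrophages, had 87, 490 and 15 tags, a ratio of 6.86 (5.45 to 8.72). Unlike Mir155 it was already above input in untreated cells, at 5.74 times (3.29 to 10.7). Gm17311 (chr1:152006173-152012078, minus strand), 56938 bp from Ptgs2, the prostaglandin synthase induced in inflammation, had 26, 89 and 27 tags. In untreated cells it stood at 0.952 times input (0.534 to 1.70), or 1.82 times (1.02 to 3.24) when scaled outside peaks, and after LPS it was 4.17 times as high as in untreated cells (2.67 to 6.73).

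Gm16988 had 20 tags in untreated, 97 after LPS and 18 in input, a ratio of 5.91 (3.63 to 10.1), with the nearest coding gene 195807 bp away. Gm16684, between genes of zinc finger proteins, had 38, 166 and 18 tags and a ratio of 5.32 (3.72 to 7.79). Both had a peak in each Ser5 library, and in untreated cells Gm16988 stood at 1.10 times input (0.552 to 2.20) and Gm16684 at 2.09 times (1.16 to 3.89). Gm14636 on the X chromosome had 242, 665 and 22 tags, a ratio of 3.35 (2.89 to 3.90), with the nearest coding gene 312179 bp from its TSS. 9330175E14Rik had 151, 340 and 15 tags and a ratio of 2.74 (2.26 to 3.35), or 1.46 on the log2 scale, which became 2.90 with 500 bp on each side. Nlrc5, with 26, 84 and 10 tags and a ratio of 3.94 (2.51 to 6.37), is a member only because this annotation types it as lincRNA: it has 49 annotated exons and is known as a coding gene, the NOD-like regulator of MHC class I genes.

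A peak after LPS alone was found at 6 near or distal members (1.58%, against 1.12% of the other genes), and all 6 were higher by the rule of size. Peaks and ratios rest on the same tags, so the ratio is no separate evidence at these 6. Besides Mir155, Gm17311 and Nlrc5 these were Gm11292, E230016K23Rik and 2610035D17Rik, which are named here after their values were seen. Each had 3 tags in untreated macrophages, and after LPS they had 18, 17 and 12 tags against 16, 20 and 5 in input. In TPM, 2610035D17Rik was then 2.89 times as high as input, whereas Gm11292 stood at 1.36 times and E230016K23Rik, 3420 bp from the chemokine gene Ccl9, at 1.02 times, all by total tags.

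The 8 near and distal members with the smallest ratios held 47 to 211 tags in untreated macrophages and 6 to 32 after LPS. 9330111N05Rik (chr13:81102149-81267863, plus strand) had 47 tags in untreated, 6 after LPS and 29 in input, a ratio of 0.156 (0.0544 to 0.365). In untreated cells it stood at 1.60 times input (0.988 to 2.64), and after LPS below it, at 0.249 times. Its window overlaps that of Gm4211, a member on the opposite strand with 44, 4 and 16 tags, so both describe the same stretch. 3010027C24Rik on chromosome 18 had 211, 32 and 19 tags and a ratio of 0.185 (0.123 to 0.269). Of the 8 it was the member with the most untreated tags, and after LPS it still had a peak. Gm16983 (chr8:129090870-129114888, plus strand, 3 exons) had 120, 20 and 25 tags, a ratio of 0.203 (0.120 to 0.328), and after LPS stood at 0.964 times input (0.508 to 1.81). Its log2 ratio of LPS to untreated, -2.30, was -4.42 with 500 bp and -1.59 with 2 kb on each side. 4930520O04Rik, 6831 bp from Crtap, had 75, 13 and 16 tags and a ratio of 0.211 (0.108 to 0.384). After LPS it had 0.979 times the input TPM (0.433 to 2.17).

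Pvt1 (chr15:61869542-62209651, plus strand), a long lincRNA gene downstream of Myc and known from amplifications in tumours, had 60 tags in untreated, 12 after LPS and 20 in input. The ratio was 0.244 (0.119 to 0.458), and the peak in the untreated library was absent from the LPS list. Gm807 had 97, 17 and 30 tags, Gm9530, 13101 bp from the immediate early gene Ier5, had 71, 13 and 30, and A030009H04Rik had 90, 18 and 22. All 3 were between 0.214 and 0.244 times the untreated level. By total tags the level after LPS did not exceed that of input in these 8 members except at 3010027C24Rik (2.03 times). This turns with the scaling, since with tags outside peaks 9330111N05Rik alone stayed below input (0.514 times) and the others stood at 1.08 to 4.18 times.

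**Figure D4:**
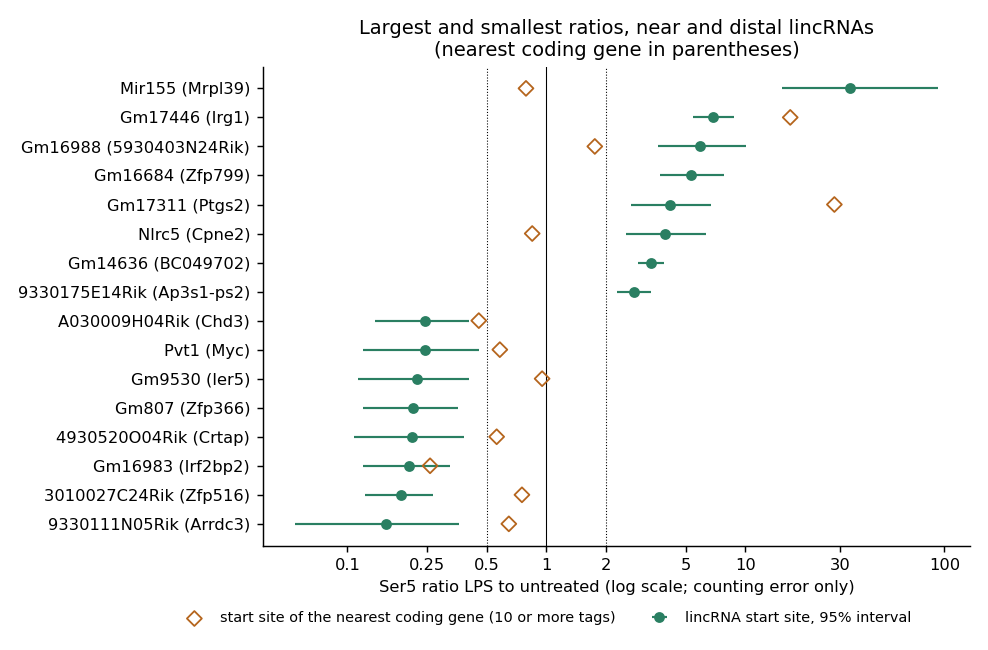
Points give the ratio of LPS to untreated Ser5 TPM (log scale) at the TSS of 8 near or distal lincRNA genes at either end of the order, with 95% counting intervals, and diamonds the ratio at the TSS of the nearest coding gene. Mir155 stands at 33.7 beside 0.789 for Mrpl39, and Gm16983 at 0.203 beside 0.260 for Irf2bp2.

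At shared and inside members the largest ratios were found at coding genes whose own start was at least 2 times higher after LPS. Gm16685 (chr3:7612705-7690001, plus strand, 3 exons) starts 188 bp from the cytokine gene Il7 in the opposite direction, and had 7 tags in untreated, 311 after LPS and 9 in input, a ratio of 54.1 (26.0 to 136). 7530420F21Rik (chr1:151922003-151947004, minus strand), 250 bp from the start of Ptgs2, had 16, 349 and 10 tags and a ratio of 26.6 (16.1 to 47.0). These windows contain the coding start too, whose own ratios were 65.8 for Il7 and 28.0 for Ptgs2. Gm17710, inside the cathepsin gene Ctsc, had 25, 227 and 18 tags, a ratio of 11.1 (7.31 to 17.5), while the Ctsc start stood at 3.23. Gm16912, 1113 bp from the kinase gene Pim1, had 237, 1154 and 29 tags and a ratio of 5.93 (5.16 to 6.85), next to 4.17 for Pim1. 4933416M07Rik, inside Rab11fip1 (2.23 at its start), had 13, 60 and 15 tags and a ratio of 5.62 (3.05 to 11.2).

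At the other end A930024E05Rik, which starts 48 bp from a coding start of Kdm2b, a histone demethylase gene, had 207, 30 and 15 tags, a ratio of 0.177 (0.116 to 0.260). The annotated 5′ end of Kdm2b stood at 0.830 (0.701 to 0.982). Tags in the window of A930024E05Rik cannot be assigned to either gene. Gm12908, 213 bp from the lipoprotein receptor gene Lrp8, had 136, 25 and 8 tags and a ratio of 0.224 (0.140 to 0.345), next to 0.208 for Lrp8, and with 2 kb on each side its log2 ratio was -1.45. BC046401 at Zmynd8 had a ratio of 0.233 (89 and 17 tags), Gm17591 inside Zfp36l1 0.247 (69 and 14 tags) and F630040L22Rik inside Bsn 0.249 (49 and 10 tags). With a window of 500 bp on each side Gm17591 was no longer at most 0.5 times its untreated level.

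Over whole gene bodies the picture was similar. Of 1100 members with at least 10 body tags 74 were higher after LPS (6.73%, against 6.29% of the other genes) and 161 lower (14.6%, against 12.2%). A choice made after seeing the data restricted the count to stretches over 1 kb from the member TSS and from any coding gene. There 47 of 683 were higher (6.88%) and 114 lower (16.7%), and such stretches were not counted for the other genes. Of the near and distal members Mir155 had the largest body ratio, 33.3 (17.3 to 73.7), from 9 tags in untreated to 246 after LPS. Gm14636 followed with 516 and 1674 tags and 3.95 (3.58 to 4.37), Gm17311 with 3.86 (2.24 to 6.97), Nlrc5 with 583 and 1674 tags and 3.50 (3.18 to 3.85), and Gm17446 with 682 and 1908 tags and 3.41 (3.12 to 3.73). The smallest were C330046G13Rik at 0.143 (51 and 6 tags), Gpr137b-ps at 0.187 (130 and 20 tags), C030034L19Rik at 0.198 (283 and 46 tags), 4930520O04Rik at 0.218 (95 and 17 tags) and Gm16983 at 0.220 (975 and 176 tags). C330046G13Rik had just 1 untreated tag at its annotated TSS, and of the 30-base sequences in the Gpr137b-ps window 12.8% were unique, so reads of this pseudogene-named member depend on few positions.

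Single loci showed where along the gene the tags lay. At Mir155 the tags after LPS were not centred on the annotated TSS: the 500-bp bin at the TSS held 54 tags (17.3 TPM per kb), while that starting 10000 bp upstream held 291 (93.1) and that starting 4000 bp downstream, beyond the annotated end, 266 (85.1). In untreated cells these bins held 1, 9 and 8 tags. At Gm17446 the highest bin started 4000 bp downstream, at the 3′ end of the gene, and held 960 tags in untreated (252 TPM per kb) and 1113 after LPS (356), against 28 and 158 at the TSS. The difference between the libraries was thus larger at the annotated start than at the 3′ summit.

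At Gm16685 tags continued into the lincRNA: its stretch of 75279 bp over 1 kb from the TSS and from coding genes held 27 tags in untreated and 454 after LPS, a ratio of 20.5 (13.9 to 31.4). At 7530420F21Rik they did not, as its corresponding 24001 bp held 18 and 23 tags (1.56, 0.804 to 3.06), and the tags after LPS lay on the Ptgs2 side, with 311 in the 500 bp upstream of the TSS and 7 in the 500 bp downstream. The body of 7530420F21Rik stood below input in both libraries by total tags (0.110 and 0.211 against 0.563 TPM per kb). Scaled outside peaks, it stood at 0.375 times input (0.223 to 0.603) in untreated cells. After LPS it was then 0.773 times input, with an interval that included 1 (0.506 to 1.15). These 2 members, which start close to the start of a strongly induced gene, therefore differed in whether Ser5 tags were found along the lincRNA itself.

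At Pvt1 the tags of untreated cells were highest in the bin at the TSS (34 tags, 8.93 TPM per kb, against 5 after LPS and 8 in input). Over the whole Pvt1 gene of 340110 bp the level was 0.685 TPM per kb in untreated, 0.384 after LPS and 0.857 in input. Scaled outside peaks, the untreated body of Pvt1 stood above input (1.53 times, 1.44 to 1.63) and that after LPS at 0.924 times. At Gm16983 most tags of the TSS window lay upstream, with 72 in untreated and 17 after LPS in the bin starting 1000 bp upstream, and the highest bins lay 17500 bp downstream (165 and 35 tags) and, past the annotated end, 27500 bp downstream (338 and 66 tags), the side of Irf2bp2, whose start stood at 0.260 (0.214 to 0.315). A stretch of 19325 bp of Gm16983 over 1 kb from coding genes and from the TSS gave 653 and 133 tags, a ratio of 0.248 (0.204 to 0.300).

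**Figure D5:**
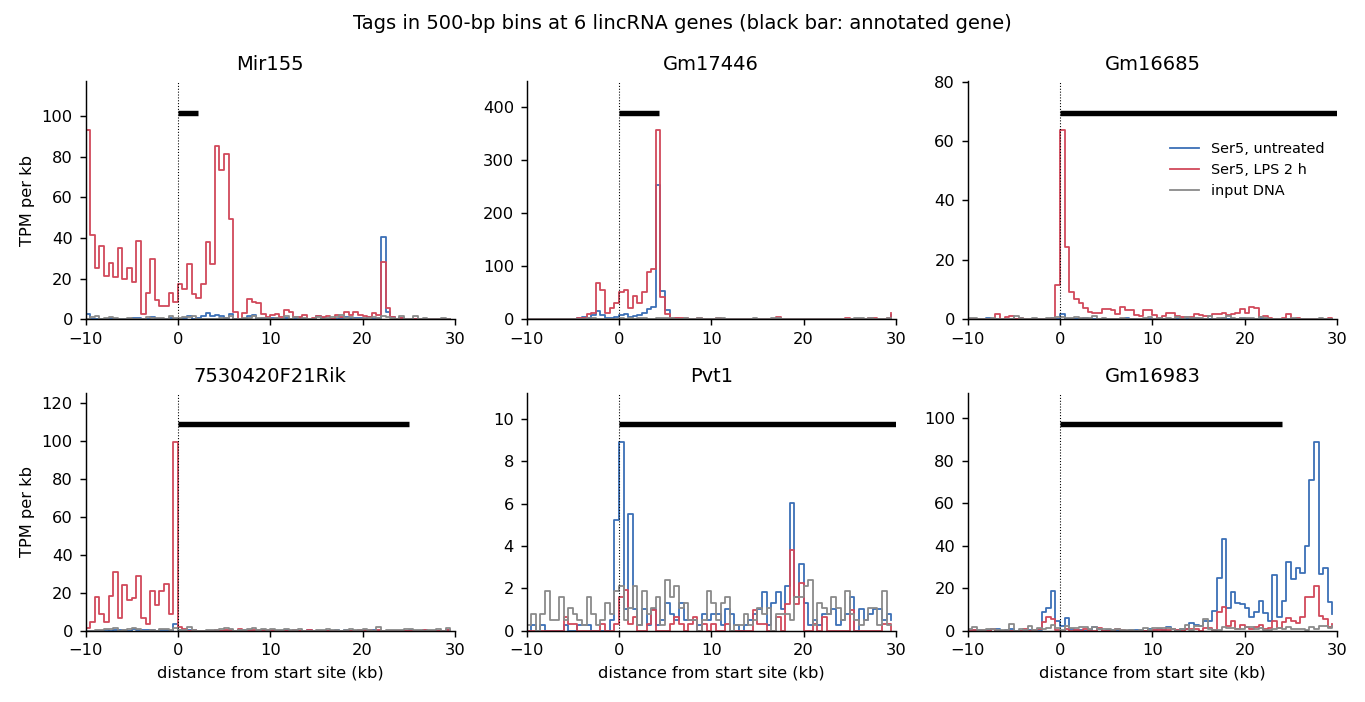
Steps give TPM per kb in 500-bp bins against the distance from the TSS (kb, gene direction to the right) at 6 lincRNA genes, for untreated Ser5, LPS Ser5 and input, with the annotated gene as a black bar. Tags lie along the body of Gm16685 but on the upstream, Ptgs2 side of 7530420F21Rik, and the highest bin of Gm17446 lies at its 3′ end.

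Near and distal members and their nearest coding gene tended to differ between the libraries in the same direction. Over 136 pairs with at least 10 tags at both start sites, with 131 different coding genes, the log2 ratios had a Pearson coefficient of 0.44 and a Spearman coefficient of 0.47, given as a description, since all points share the same 2 libraries and their depths. Of the 136 coding neighbours 43 had a ratio above 1, 11 were at least 2 times higher and 26 at least 2 times lower. Of 12 higher members in these pairs 4 had a coding neighbour that was also at least 2 times higher, and 8 one with a ratio above 1. Of 36 lower members 10 had a neighbour that was at least 2 times lower, and 32 one with a ratio below 1. At Irg1 the coding start stood at 16.8 (15.4 to 18.4) and at Ptgs2 at 28.0, both above the ratios of Gm17446 and Gm17311. Mrpl39 beside Mir155 stood at 0.789 (0.616 to 1.01), Myc beside Pvt1 at 0.583 (0.499 to 0.679), and Ier5 beside Gm9530 at 0.951 (0.852 to 1.06). 2310001H17Rik, 29342 bp from the activation marker gene Cd69, had 266, 598 and 25 tags, a ratio of 2.74 (2.37 to 3.18), and Cd69 one of 10.6 (7.77 to 14.9).

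Of the known lincRNAs, the 7 listed hosts of small RNAs that were found by symbol were above input in both Ser5 libraries, with ratios between 0.841 and 1.06. These 7 of 23 listed names were Gas5, Snhg1, Snhg4, Snhg5, Snhg7, Snhg12 and Dleu2. All 7 had peaks in both libraries and none passed the rule of size, with a median log2 ratio of -0.06 beside -0.28 over all members. Mir155, which holds miR-155, carries another symbol on the list and is not among these 7. Its ratio was 33.7, and in untreated cells it stood at 0.424 times input. Gas5, whose promoter is shared with Zbtb37, had 773 tags in untreated, 612 after LPS and 29 in input, a ratio of 0.965 (0.866 to 1.07). Snhg1 is shared too, 127 bp from the start of Slc3a2 (472 and 417 tags). The signal at Gas5 and Snhg1 cannot be assigned to the lincRNA rather than to the coding gene. Snhg12 had 437, 349 and 10 tags, a ratio of 0.973 (0.843 to 1.12). Snhg7 had 329, 227 and 21 tags, and at 0.841 (0.707 to 0.999) its interval only just excluded 1. Along Dleu2, whose TSS ratio was 0.947 (0.834 to 1.08), the body held 1672 and 1580 tags, a ratio of 1.15 (1.07 to 1.23).

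Of 3 X-linked lincRNAs (6 names listed) Xist, the RNA that coats the inactive X chromosome, had 203 tags in untreated, 146 after LPS and 12 in input, or 16.7 and 14.7 times input, and its ratio was 0.877 (0.704 to 1.09). Tsix, the antisense gene to Xist, had 1, 1 and 3 tags at its TSS and 598, 427 and 214 over its body, part of which overlaps Xist, where tags cannot be assigned to either gene. 6720401G13Rik had 59, 33 and 7 tags, a ratio of 0.682 (0.431 to 1.06). Of the 6 imprinted members (10 names listed) 5 (Igf2as, Meg3, Mirg, Nespas and Rian) had no peak and at most 5 tags at the TSS in either Ser5 library. Their bodies held 1 to 34 tags in each Ser5 library, against 34 to 111 in input. The imprinted exception was Airn (chr17:12934177-13052988, plus strand), the lincRNA antisense to Igf2r, with 122, 29 and 15 tags and a ratio of 0.290 (0.186 to 0.437). Its TSS lies inside Igf2r, whose own start had 80 and 10 tags, a ratio of 0.152 (0.0704 to 0.295). Away from coding genes 67214 bp of Airn held 823 tags in untreated and 186 after LPS (0.275, 0.234 to 0.323). The lower signal thus ran along Airn as well.

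The 2 members found by symbol on the immune list (22 names) had unlike ratios. Ptgs2os and Ptgs2os2, also on that list, were not found by symbol. Whether the members beside Ptgs2, 7530420F21Rik (ratio 26.6) and Gm17311 (4.17), are these genes was not examined. Gm16685 has been described with Il7, and Gm14005, also known as Morrbid and linked to survival of short-lived myeloid cells, had 163, 110 and 26 tags at its TSS, a ratio of 0.822 (0.640 to 1.05). On the log2 scale this is -0.28, and with 2 kb on each side it turned to 0.27. Over its 233357 bp the body held 1345 and 1446 tags, a ratio of 1.31 (1.22 to 1.41), at 0.757, 0.991 and 0.949 TPM per kb, or 1.52 and 2.15 times input when scaled outside peaks. Among 8 developmental and other known lincRNAs (28 names listed) 3 had at least 10 tags. Tug1 had 300, 234 and 14 tags (0.951, 0.798 to 1.13) and 1700020I14Rik 173, 126 and 21 (0.888, 0.700 to 1.12), and the other was Pvt1. Tug1 is a shared member, 682 bp from the start of Morc2a (273 and 210 tags), so its tags cannot be assigned to either gene. Sox2ot, Six3os1, Rmst, Miat and 2700086A05Rik, known from neural or embryonic tissue, had 0 to 3 tags at the TSS in each Ser5 library and no peak there.

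Promoter letters differed somewhat between higher and lower members. The interferon-type letters GAAANNGAA stood in 12 of 62 higher members (19.4%), 5 of 138 lower members (3.62%) and 8.21% of the members in between, beside 8.93% of coding genes. The NF-kB letters stood in none of the 62 or the 138, and AP-1 letters in 2 (3.23%) and 6 (4.35%). A CpG ratio of at least 0.6 was found in 45.2% of higher, 41.3% of lower and 60.4% of the 609 members in between. These shares describe the letters in 300-base windows, and shared promoters hold those of the coding gene too.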

How the data were processed

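Aligned tags and peak lists of Ser5-phosphorylated Pol_II ChIP-Seq (untreated, LPS) and input DNA were used as deposited, and each library was grouped by its labels. The authors trimmed the reads, aligned them to mm9 with Bowtie (unique matches, at most 2 mismatches) and called peaks per library against input with MACS at a p-value of 1e-05. The deposited peak score is minus 10 times log10 of that p-value, and the deposited tag files keep duplicates. Versions are not given in the sources used here.

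Tags were counted by their 5′ end over each gene and 1 kb on each side of its annotated 5′ end (GENCODE M1, NCBIM37, the assembly of mm9; 0 tags lay beyond a chromosome end), and scaled to 1e+06 tags on chromosomes 1 to 19 and X. Peaks overlapped by at least 1 bp. Tag counts have exact Poisson intervals, ratios exact conditional intervals and shares Wilson intervals, at 95% and for counting error only. No test was possible with 1 library per condition. A count of 0 entered the 2-fold rule as 0.5 tags.

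Named were, among near and distal members, the 8 highest levels in each Ser5 library and, with at least 50 tags, the 8 largest and smallest TSS ratios and the 5 largest and smallest body ratios, the 5 largest and smallest TSS ratios of shared and inside members, and lists of known non-coding RNAs. The members and lists were chosen with earlier results of these data known. Listed names were matched by symbol alone, so a gene to which the annotation gives another symbol was missed. Alternatives concerned duplicates, tag shift, scaling, minimum, window, peak threshold and position. Python 3.11.15, numpy 2.4.6, pandas 2.3.3, scipy 1.17.1, numba 0.67.0 and matplotlib 3.10.9 were used, and the functions were tested on simulated data.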

Additional observations from a re-analysis of the deposited data

How the results depend on the processing

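Counting 1 tag per position and strand, moving tags 75 bp downstream, scaling outside peaks, a minimum of 20 tags, or windows of 500 bp or 2 kb left the counts of members above, higher or lower within 1.5 times. With no minimum 188 members were higher and 240 lower at the TSS and 114 higher over the body, since members of a few tags enter. Near and distal members alone, being fewer, gave 125 and 103 above input (untreated, LPS), 17 higher and 45 lower at the TSS, 20 and 51 over the body, and peaks in 126, 109, 103 (both), 23 (untreated only) and 6 (LPS only). Peaks with p of at most 1e-10 left 19 with LPS only. Of 2 alternatives chosen after seeing the data, stretches away from coding genes gave 47 higher over the body. The other took members whose uniqueness at 30 and 45 bases differed by at most 1 percentage point. It gave 363 and 345 above input, 41 higher and 76 lower. Of 31 named members past the rule of size 30 stayed so under all 5 alternatives, and none of the 31 changed direction. Of 235 values for 47 named members 11 lay outside the interval of the reported value, and Gm14005, which is under the rule of size, turned from -0.28 to 0.27 (log2) with 2 kb on each side. No paired analysis was possible because each condition has 1 library. Spread between cultures or animals is unknown, and 464 members had under 10 tags, too few for a ratio.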
